A study of Mus musculus with 6 samples.

Results

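Cars2 encodes the mitochondrial cysteinyl-tRNA synthetase, and its reads were examined transcript by transcript in interscapular brown fat, the heat-producing depot between the shoulder blades. The gene (ENSMUSG00000056228) was picked with its difference between the groups already known, so its levels and shares are given as a description without a test. Every transcript that the GENCODE M21 annotation of GRCm38 assigns to Cars2 was taken. There are 12 of them, and 6 held reads, out of 14671 transcripts and 8129 genes with reads in the series. Full-length cDNA was sequenced on nanopores from 3 cold-exposed mice, numbered 4, 11 and 15, and 3 control mice, numbered 2, 9 and 14. All were wild type C57BL/6N males aged 20 weeks, and each library came from its own mouse. The cold-exposed mice were kept singly at 4 °C for 24 h. For the controls the labels give only the general housing temperature of 22 to 24 °C, so cold and single housing cannot be told apart. The extraction text of the samples names a visceral white depot, eWAT, while the tissue label gives interscapular brown fat.

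A cysteinyl-tRNA synthetase joins cysteine to its transfer RNA, and CARS2 does so for protein synthesis on mitochondrial ribosomes, which make subunits of the respiratory chain. CARS2 has also been described as a producer of cysteine persulfides. A transcript is annotated as a target of nonsense-mediated decay when its reading frame ends well before the last exon junction, because the exon junction complexes left downstream of such a stop mark the RNA for breakdown. Read counts give the RNA that was present, not the rate at which it was made or degraded. In whole tissue, fewer cells of a type and less RNA per cell cannot be told apart.

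The decay-annotated Cars2 transcript with reads, Cars2-205 (ENSMUST00000210478.1), and the full-length coding transcript, Cars2-201 (ENSMUST00000049461.6), differ inside the gene at a single place. Cars2 lies on the minus strand at chr8:11513977-11550783, and both transcripts have 15 exons. Exon 7 of Cars2-205 begins 191 bases further upstream, at a different splice acceptor, and this extension occupies chr8:11530428-11530618 (GRCm38). It lies in an intron of Cars2-201. The other 12 exons among exons 2 to 14 have the same boundaries in both. At the outer ends Cars2-201 is 42 bases longer on the 5′ side and 44 bases longer on the 3′ side. The next lines show the last 30 bases of exon 6 in lower case, joined to exon 7 in capitals, from the GENCODE transcript sequences, because this join decides which protein can be read.
Cars2-205: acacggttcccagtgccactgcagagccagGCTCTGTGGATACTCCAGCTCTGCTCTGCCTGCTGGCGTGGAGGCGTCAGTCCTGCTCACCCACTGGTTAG
Cars2-201: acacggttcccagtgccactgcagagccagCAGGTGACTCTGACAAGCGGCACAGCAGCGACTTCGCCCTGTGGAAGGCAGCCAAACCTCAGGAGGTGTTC
The Cars2-205 line ends with its annotated stop codon, TAG, whose last base is base 71 of the extension. Both reading frames share 203 codons before the join, which is 36.8% of the 552 codons of Cars2-201. Cars2-205 adds 23 codons of its own and stops at 226. Its stop lies in exon 7, with 8 exon junctions after it and 1091 bases before the last of them. The Cars2-201 stop lies in the last exon, 78 bases after the last junction. The extension length leaves a remainder of 2 when divided by 3, so it also shifts the frame of whatever follows.

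The next line, from the Cars2-205 transcript sequence at chr8:11530418-11530447 (GRCm38), shows the end of the extension in lower case and the first bases of exon 7 of Cars2-201 in capitals, because this is the acceptor that Cars2-205 passes over.
acceptor: cagcaaccccctgtcaccagCAGGTGACTC
The extension ends in AG, the dinucleotide of a splice acceptor, and 12 of its last 20 bases are pyrimidines. The capitals begin with a second CAG, and in Cars2-202, Cars2-206 and Cars2-211 exon 7 starts 3 bases later, after that CAG. The extension has a GC content of 57.6%, against 56.0% for the whole of Cars2-205. Cars2-205 has 674 bases upstream of the extension and 1142 downstream, and Cars2-201 holds them too. Apart from the outer ends of Cars2-201, a read must cover the join or the extension to tell the transcripts apart. How a read that fits both was assigned is not stated.

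**Figure D1:**
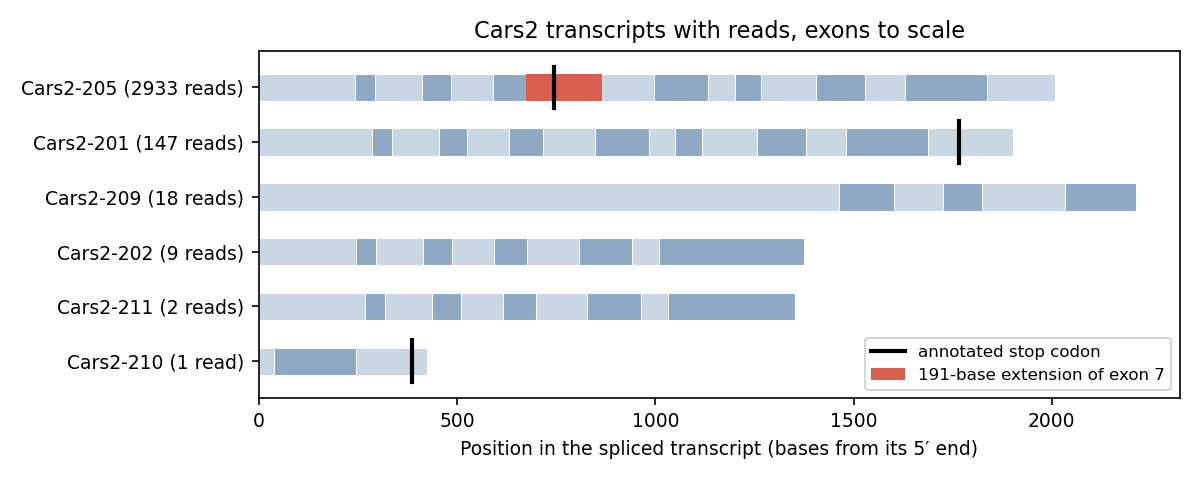
The Cars2 transcripts that held reads, drawn to scale by position in the spliced transcript in bases from its own 5′ end (x axis), with alternating shades for exons, black bars for annotated stop codons and the reads summed over 6 libraries beside each name. Cars2-205 (2933 reads) and Cars2-201 (147 reads) share their exon pattern, and the red block marks the 191-base extension of exon 7 in Cars2-205, with the stop inside it.

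Cars2 RNA was far more abundant in cold brown fat, and nearly all of it was counted on Cars2-205. Cars2 had 803, 1453 and 797 reads in cold mice 4, 11 and 15, against 21, 16 and 20 reads in control mice 2, 9 and 14. As counts per 1000000 reads after scaling by the trimmed mean of M-values (CPM), this was 269.5, 481 and 263 CPM in the cold mice, against 11.4, 16.4 and 12.0 CPM in the control mice. The lowest cold value was far above the highest control value, and cold mouse 11 stood above the other two cold mice. The means were 338 ± 124 CPM in cold and 13.3 ± 2.77 CPM in control (SD, n = 3 each). The fitted log2 difference was 4.69, or 25.8-fold, against 4.67 for the ratio of these means. Over all genes, the groups did not overlap in 47.8% of the 2093 genes tested, and nothing is read from that share, since the gene was chosen on this contrast. The log2 difference was 4.35 without cold mouse 11 and 4.85 without cold mouse 15, the ends of its range when 1 library was left out.

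Cars2-205 itself had 766, 1385 and 733 reads in the cold mice, against 20, 15 and 14 in the control mice. Its level was 257, 458 and 241 CPM in the cold mice, against 10.8, 15.4 and 8.40 CPM in the control mice, so the groups were as far apart as for the whole gene. The means were 319 ± 121 CPM in cold and 11.5 ± 3.56 CPM in control (SD, n = 3 each). The fitted log2 difference was 4.82, against 4.79 for the ratio of these means.

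Cars2-201, the transcript for the whole synthetase, was present at far lower counts. It had 34, 58 and 48 reads in the cold mice, against 1, 0 and 6 in the control mice. In CPM this was 11.4, 19.2 and 15.8 in the cold mice, against 0.541, 0 and 3.60 in the control mice. The coding transcript was thus higher in every cold mouse than in any control mouse, with 1 control mouse at 0 and another at a single read. The means were 15.5 ± 3.90 CPM in cold and 1.38 ± 1.94 CPM in control (SD, n = 3 each). The fitted log2 difference was 3.28, against 3.49 for the ratio of these means. With 7 control reads in all, the difference between the log2 values of Cars2-201 and Cars2-205 rests on very few reads. The cDNA was amplified by PCR without molecular identifiers, so counting intervals cover counting error only.

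The remaining Cars2 transcripts held few reads. The retained-intron transcript Cars2-209 had 2, 5 and 10 reads in the cold mice, against 0, 1 and 0 in the control mice. The processed transcript Cars2-202 had 9 reads, all in cold mice 11 and 15. Cars2-211, another processed transcript, had 2 reads and the short coding model Cars2-210 had 1, again in cold mice. The other decay-annotated models, Cars2-204 and Cars2-206, had no read in any library, and neither did Cars2-203, Cars2-207, Cars2-208 and Cars2-212. Reads fell on 4, 5 and 5 Cars2 transcripts in the cold mice, against 2 in each control mouse, where the 16 to 21 reads leave little room to see a rare form.

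**Figure D2:**
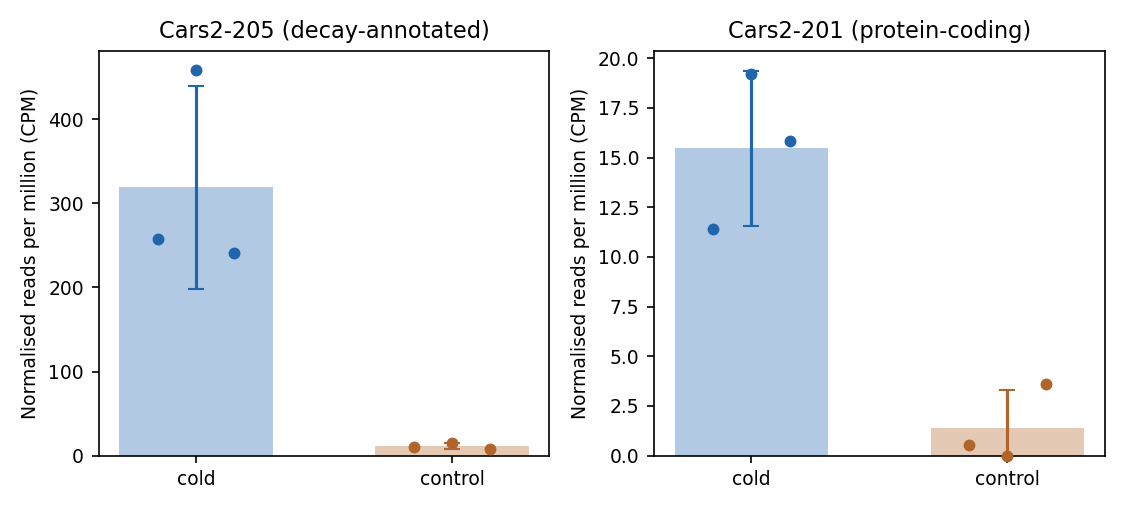
CPM of Cars2-205 and of Cars2-201 in the 3 cold and 3 control libraries (y axis from 0, separate scale for each panel). Bars are group means, error bars are SD and points are mice. Cars2-205 averages 319 CPM in cold and 11.5 CPM in control, while Cars2-201 averages 15.5 CPM in cold and 1.38 CPM in control.

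The share of Cars2 reads on the decay-annotated transcript was high in both groups. It was 95.4%, 95.3% and 92.0% in cold mice 4, 11 and 15, with Wilson 95% intervals of 93.7 to 96.6%, 94.1 to 96.3% and 89.9 to 93.7%. It was 95.2%, 93.8% and 70.0% in control mice 2, 9 and 14, with intervals of 77.3 to 99.2%, 71.7 to 98.9% and 48.1 to 85.5%. The cold shares lay close together, and those of control mice 2 and 9 lay among them, while control mouse 14 was lower. The group means were 94.2 ± 1.96% in cold and 86.3 ± 14.2% in control (SD, n = 3 each), a difference of 7.90 percentage points that is smaller than the control SD. Without control mouse 14 it was -0.27 points, and without control mouse 2 it was 12.4 points. On flow cell 1 alone it was 4.07 points and on flow cell 2 alone 13.3 points. On summed reads the share was 94.5% of 3053 in cold and 86.0% of 57 in control.

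The coding transcripts held 4.23%, 4.06% and 6.02% of the Cars2 reads in the cold mice, against 4.76%, 0% and 30.0% in control mice 2, 9 and 14. The 0 of 16 reads in control mouse 9 allows a share of up to 18.8% (taking 3 reads as the limit, with a Wilson upper bound of 19.4%), so its coding share cannot be told from those of the cold mice. The means were 4.77 ± 1.09% in cold and 11.6 ± 16.1% in control (SD, n = 3 each). For every read of Cars2-201 there were 22.5, 23.9 and 15.3 reads of Cars2-205 in the cold mice, against 20.0 in control mouse 2 and 2.33 in control mouse 14. No ratio exists for control mouse 9, which had no Cars2-201 read.

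The 2 flow cells of a library give a technical repeat of both measures. Scaled to counts per 1000000 reads on the flow cell, Cars2 had 261 and 291 for cold mouse 4, 486 and 489 for cold mouse 11, and 269 and 271 for cold mouse 15. The values were 13.1 and 9.36 for control mouse 2, 14.8 and 16.9 for control mouse 9, and 15.0 and 7.46 for control mouse 14. The decay-annotated share ranged from 91.6 to 96.4% over the 6 cold runs, against 66.7 to 100% over the 6 control runs, which held 6 to 14 Cars2 reads each. Both runs of control mouse 14 gave the lowest shares, 71.4% and 66.7%. Runs of 1 library repeat the sequencing and not the mouse.

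**Figure D3:**
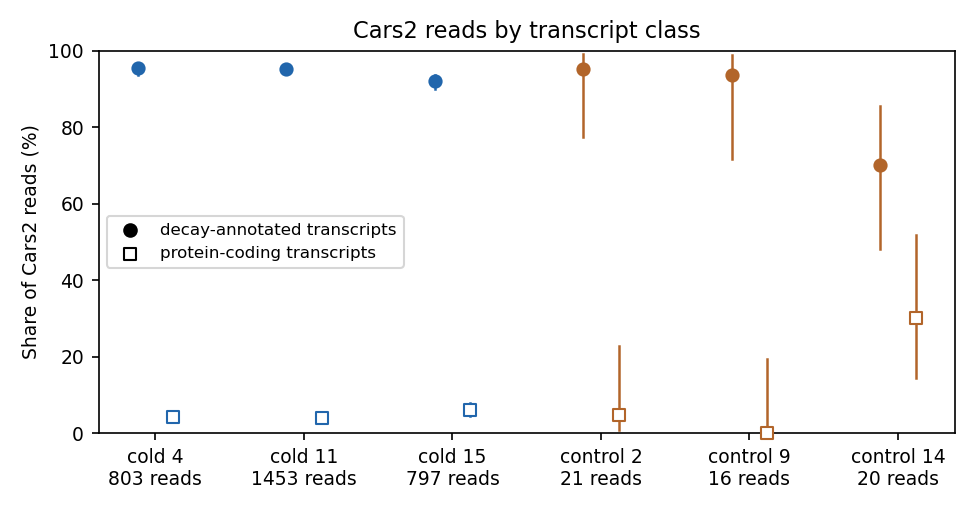
Share of Cars2 reads, in percent (y axis), held by the decay-annotated and the coding transcripts in each of 6 libraries, with points for the share and bars for the Wilson 95% interval. The cold intervals are narrow, with decay-annotated shares of 92.0 to 95.4%, and the control intervals are wide, with control mouse 14 at 70.0%.

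A predominance of decay-annotated reads was uncommon among genes. Of 1902 coding genes with at least 20 reads in each group, 488 had an annotated decay transcript. The decay share of a gene, on reads summed over a group, was over 50% in 49 of the 488 in cold and in 47 in control, with 39 in both, Cars2 among them. Cars2 ranked 12 of 488 in cold, where the median share was 0.165%. Over all other genes together, decay-annotated transcripts held 2.11%, 2.24% and 2.17% of reads in cold mice 4, 11 and 15, against 2.10%, 1.90% and 2.09% in control mice 2, 9 and 14. These shares did not overlap but lay close together, at 2.17 ± 0.0642% in cold and 2.03 ± 0.111% in control (SD, n = 3 each). The exact two-sided permutation test gave p = 0.1, the smallest that 3 against 3 allows. This pooled share weighs genes by their reads, so it is not the share of a typical gene. Pnpla2, which supplied much of it, had 165579 reads in cold, 58.2% of them decay-annotated. In control it had 83591 reads, 58.7% of them decay-annotated. Cars2 alone supplied 1.23%, 2.03% and 1.13% of all decay-annotated reads in the cold mice, against 0.0514%, 0.0777% and 0.0386% in the control mice.

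Several library measures differed between the libraries, some along with the groups and some not. Every cold library, with 2923005 to 2982713 reads, was deeper than every control library, with 1014847 to 1849431, and after thinning to equal depth the Cars2 log2 difference was 4.67. The skeletal muscle list, of which 11 of 12 genes had reads, summed to 217, 2981 and 13648 CPM in cold mice 4, 11 and 15, against 178, 648 and 1060 CPM in control mice 2, 9 and 14. These sums overlapped between the groups, with cold mouse 4 below control mice 9 and 14. Of the 8 genes tested, edgeR called 0, beside 33.2% of all genes, and DESeq2 called 2. Their median log2 difference was 3.45. The Cars2 levels of the same libraries were 269.5, 481 and 263 CPM in the cold mice, against 11.4, 16.4 and 12.0 CPM in the control mice. Endothelial markers, with reads on 8 of 10 genes, summed to 843 to 960 CPM in cold, against 458 to 600 CPM in control. Most of that sum was Gpihbp1, with 836 ± 70.1 CPM in cold and 494 ± 74.4 CPM in control, and the log2 differences of the other tested members, none of them called, were -0.22 for Egfl7, -0.07 for Emcn and 0.40 for Esam. White fat and visceral depot markers, with reads on 6 of 10 genes and Adipoq the most abundant, summed to 1302 to 1415 CPM in cold, against 2139 to 2456 CPM in control. The members did not all move with this sum. Of the 3 tested, 1 was higher and 2 were lower in cold, beside 18.1% of all genes higher and 15.1% lower. The part of the muscle, endothelial and white fat lists in the Cars2 level was not tested. Immune markers (82.7 to 152 CPM in cold, against 101 to 166 CPM in control) and fibroblast markers (13.4 to 26.4 CPM in cold, against 11.3 to 19.5 CPM in control) overlapped between the groups. Of the 13 brown adipocyte markers 8 were tested, and 3 were higher (Elovl3, log2 3.69, Kcnk3, 1.35, and Letmd1, 0.77) and 1 was lower in cold (Cox8b, -0.98), beside 33.2% of all genes called by the same edgeR test. The other 5 had few reads, with 1 for Prdm16, 2 for Zic1, 3 for Ebf2, 4 for Dio2 and 10 for Ppargc1a over the 6 libraries. Cidea, a lipid droplet protein and the most abundant of them, had 5689 ± 328 CPM in cold and 5376 ± 506 CPM in control. Ucp1, the uncoupling protein of heat production, had 4129 ± 45.0 CPM in cold and 4520 ± 335 CPM in control, and neither of these was called, while the visceral fat markers Wt1, Upk3b, Msln and Lrrn4 were at 0 reads in all 6 libraries.

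The neighbourhood of Cars2 was looked at for a shared change or shared reads. Naxd, which encodes an enzyme that repairs hydrated NAD(P)H, lies on the opposite strand and its 3′ end overlaps 378 bases of Cars2-205 exons and 422 bases of Cars2-201 exons. It was the only gene with a stretch of at least 100 bases at 80% identity or more to Cars2, and that stretch is this overlap, read antisense. Naxd had 4, 7 and 6 reads in the cold mice, against 4, 3 and 4 in the control mice and 28 in all, while Cars2 had 3110. Ing1, a chromatin reader whose gene lies 4788 bases away on the other strand, had 7, 6 and 7 reads in the cold mice, against 0, 2 and 3 in the control mice. Neither passed the count filter.

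The nearest genes that passed it lie far off. On 1 side, 7238064 bases away, Timm44, part of the mitochondrial protein import motor, had 72.7 ± 17.2 CPM in cold and 76.5 ± 23.3 CPM in control (log2 -0.07 ± 0.28 SE, edgeR quasi-likelihood test with Benjamini-Hochberg adjustment, adjusted p = 0.870). On the other, 1608378 bases away, Lamp1, a lysosomal membrane protein, had 1089 ± 89.1 CPM in cold and 368 ± 72.3 CPM in control (log2 1.57 ± 0.19 SE, adjusted p = 0.000196 by the same edgeR test).

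The bases before the annotated start are shown for reference, as RefSeq gives them for GRCm38.p6. Whether they bear on the level of Cars2 was not tested. The line covers chr8:11550784-11551021 on the minus strand, and capitals mark a CCAAT motif read on the other strand.
Cars2 promoter: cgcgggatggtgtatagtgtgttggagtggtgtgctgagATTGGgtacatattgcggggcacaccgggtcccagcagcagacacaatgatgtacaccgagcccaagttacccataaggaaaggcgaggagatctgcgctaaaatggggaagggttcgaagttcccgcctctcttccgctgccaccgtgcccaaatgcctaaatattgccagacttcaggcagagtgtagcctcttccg
The RefSeq window reaches from 250 bases before to 50 bases after the gene start, and motifs were searched on both strands of it and of all 32851 such windows. CCAAT occurred once in the Cars2 window and in 37.4% of windows. GGGCGG occurred once, past the bases shown, and in 35.7% of windows. No match was found for TGACGTCA, which 1.79% of windows hold, nor for TGACG, contained in the motif before it and held by 20.8%. The same was true of TGATGNAA (3.97% of windows), AGGTCA (16.3%) and TATAAA (13.6%). A match describes letters in this window and says nothing of binding.

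In cold, Cars2 stood apart in level from the other genes listed as mitochondrial tRNA synthetases and their partner enzymes. The list holds no synthetase for glycine or lysine. Gars and Kars, the glycyl- and lysyl-tRNA synthetase genes, were counted only in the cytosolic list. Of the 20 genes in the mitochondrial list 18 had reads. Cars2 held 3053 reads in cold and 57 in control, while the others together held 165 in cold and 77 in control. Per kilobase of transcript, Cars2 had 135, 241 and 132 CPM in the cold mice, against 5.67, 8.14 and 6.08 CPM in the control mice. The 20 others summed to 7.97, 7.27 and 9.68 CPM per kilobase in the cold mice, against 7.45, 7.49 and 10.4 in the control mice. On this scale Cars2 exceeded the sum of the others in each cold mouse. In the control mice it lay above that sum in mouse 9, at 8.14 against 7.49, and below it in mice 2 and 14. The sum leaves out Gars and Kars, which had 9 reads and 1 read in control mouse 9. The order in that mouse therefore holds for the list only. These values count all Cars2 transcripts, and most of the reads were on Cars2-205. Cars2-201, the transcript for the whole synthetase, had 34, 58 and 48 reads in the cold mice, where the others together had 52, 49 and 64. In the control mice Cars2-201 had 1, 0 and 6 reads, against 28, 16 and 33 for the others together. These read counts are not scaled by length. Gars and Kars, tested in the cytosolic list, were not called (log2 0.36 and 1.17, edgeR adjusted p = 0.374 and 0.0734). Within the mitochondrial list only Fars2, the phenylalanyl-tRNA synthetase, had counts enough for a test. It had 4.43 ± 0.488 CPM in cold and 7.51 ± 3.67 CPM in control (log2 -0.82 ± 0.40 SE, edgeR adjusted p = 0.134). Per kilobase, Fars2 had 3.58, 2.04 and 5.97 CPM in control mice 2, 9 and 14, so in mouse 14 it lay close to Cars2. It was not called, whereas 33.2% of the 2093 genes tested were, 18.1% higher and 15.1% lower in cold, with a median log2 difference of 0.04. No member reached an unadjusted p under 0.05, and DESeq2 called none.

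The cytosolic tRNA synthetase list has 24 genes, among them the partner genes Aimp1, Aimp2 and Eef1e1, and 22 had reads and 6 were tested. Of these, 1 was higher in cold and none lower, beside 18.1% of all genes higher and 15.1% lower, with a median log2 difference of 0.71. The higher one was Sars, the seryl-tRNA synthetase, with 14.8, 13.9 and 12.5 CPM in the cold mice, against 7.57, 9.25 and 6.00 CPM in the control mice (log2 0.88 ± 0.29 SE, edgeR adjusted p = 0.0373). The groups did not overlap, as in 47.8% of all genes tested. The call was lost when any 1 of the 6 libraries was left out and in DESeq2. Hars, the histidyl-tRNA synthetase and the most abundant of the 6, had 12.6 ± 1.82 CPM in cold and 12.7 ± 5.94 CPM in control. Cars, the cytosolic counterpart of Cars2, had 2 reads, both in cold mouse 4, so that its level could not be compared.

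The preference for a decay-annotated transcript was not seen in the other synthetase genes as a group. The lists hold 40 genes with reads, partner genes included. Over these, 5 decay-annotated transcripts held 13 reads, or 1.40%, in cold and 9 reads, or 2.71%, in control. They belong to Farsb, Nars, Wars, Wars2 and Yars2. None had counts enough for the test, in which 32.7% of 2787 transcripts were called. The shares above pool the reads of all 40 genes, whereas that of Cars2 is a share within its gene. Within Farsb the decay share was 6.32% of 95 reads in cold and 18.5% of 27 reads in control. For Fars2, Farsa and Hars it was 0% in both groups.

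Mitochondrial transfer RNA is cut and modified before it is charged, and 18 genes of these steps were followed. Of them 15 had reads and 2 were tested, none higher and 1 lower in cold, beside 15.1% of all genes lower. Hsd17b10, a subunit of mitochondrial RNase P, had 77.9, 63.9 and 83.7 CPM in the cold mice, against 123, 118 and 136 CPM in the control mice (log2 -0.74 ± 0.20 SE, edgeR adjusted p = 0.0172). All cold values lay below all control values, and without cold mouse 11 the call was lost.

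Of 17 genes for mitochondrial translation factors and their regulators, 6 were tested, and 1 was higher and none lower in cold, beside 18.1% of all genes higher and 15.1% lower. Their median log2 difference was 0.53. Slirp, an RNA-binding protein that stabilises mitochondrial messenger RNA, had 175, 131 and 157 CPM in the cold mice, against 104, 52.4 and 66.0 CPM in the control mice (log2 1.05 ± 0.27 SE, edgeR adjusted p = 0.0123). The groups did not overlap, as in 47.8% of all genes tested. The call was lost without cold mouse 4, control mouse 9 or control mouse 14. Oxa1l, which inserts new proteins into the inner membrane and was the most abundant of the list, had 604 ± 53.6 CPM in cold and 484 ± 107 CPM in control (log2 0.32 ± 0.20 SE, edgeR adjusted p = 0.248).

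The messenger RNAs that charged mitochondrial transfer RNAs serve to translate had lower levels among the reads in cold. The libraries were poly(A)-selected and made as capped, full-length cDNA, and how evenly they captured mitochondrially encoded RNA was not tested. Of 13 such messenger RNAs 12 were tested, 11 were lower and none was higher, beside 15.1% of all genes lower. The median log2 difference was -1.27. The subunit mRNA mt-Nd4, of complex I, had 976, 989 and 1003 CPM in the cold mice, against 2553, 3429 and 2269 CPM in the control mice (log2 -1.47 ± 0.18 SE, edgeR adjusted p = 0.000191). For mt-Atp6, of ATP synthase, the log2 difference was -1.69 ± 0.21 SE (edgeR adjusted p = 0.000215), and for mt-Co2, of cytochrome oxidase, -1.54 ± 0.20 SE (edgeR adjusted p = 0.000279). The most abundant, mt-Cytb, had 11614 ± 1648 CPM in cold and 19747 ± 5035 CPM in control (log2 -0.77 ± 0.18 SE, edgeR adjusted p = 0.00879). The tested member without a call was mt-Co1, and the calls of mt-Nd3 and mt-Nd6 were lost without certain single libraries, cold mouse 11, cold mouse 15 or control mouse 2 for mt-Nd3 and cold mouse 4 or control mouse 9 for mt-Nd6.

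Among genes that supply cysteine, the substrate of CARS2, or use it, some were higher and some lower in cold. Of 18, 15 had reads and 8 were tested, and 3 were higher and 2 lower, beside 18.1% of all genes higher and 15.1% lower. The median log2 difference was 0.52. Got1, an aspartate aminotransferase that also acts on cysteine sulfinate, had 169, 189 and 261 CPM in the cold mice, against 9.74, 11.3 and 12.0 CPM in the control mice (log2 4.23 ± 0.27 SE, edgeR adjusted p = 5.45e-06). Slc3a2, the heavy chain of the cystine transporter, had a log2 difference of 1.77 ± 0.31 SE (edgeR adjusted p = 0.00144), and Oplah, which opens 5-oxoproline in glutathione turnover, of 1.54 ± 0.33 SE (edgeR adjusted p = 0.00437). Cdo1, which oxidises cysteine and so removes it, had 26.2, 32.4 and 34.3 CPM in the cold mice, against 103, 134 and 75.0 CPM in the control mice (log2 -1.74 ± 0.26 SE, edgeR adjusted p = 0.000588). Slc1a5, a carrier of neutral amino acids, had 35.9 ± 9.19 CPM in cold and 115 ± 22.2 CPM in control (log2 -1.67 ± 0.25 SE, edgeR adjusted p = 0.000628). The groups did not overlap in these called genes, nor in 47.8% of all genes tested. The transsulfuration enzyme Cbs, the cystine transporter Slc7a11 and the glutathione enzyme Gclc had no read in any library.

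Of 16 genes that handle sulfide and persulfides, 15 had reads and 10 were tested, and 3 were higher and 1 lower in cold, which at 4 of 10 lies near the 33.2% of all genes called. The median log2 difference was 0.47. Txnrd1, the cytosolic thioredoxin reductase, had 57.7, 49.98 and 53.0 CPM in the cold mice, against 9.74, 22.6 and 14.4 CPM in the control mice (log2 1.83 ± 0.30 SE, edgeR adjusted p = 0.000995). Tstd3, a protein with a rhodanese domain, had a log2 difference of 1.54 ± 0.28 SE (edgeR adjusted p = 0.00177), and Txn2, the mitochondrial thioredoxin, of 0.83 ± 0.16 SE (edgeR adjusted p = 0.00228). Sqor, which oxidises sulfide in mitochondria and makes persulfides, had 6.38, 8.61 and 6.26 CPM in the cold mice, against 44.4, 49.3 and 45.0 CPM in the control mice (log2 -2.69 ± 0.25 SE, edgeR adjusted p = 3.91e-05). Sqor therefore lay apart from Cars2 in direction, with all cold values far below all control values. Mpst, another enzyme of persulfide formation, had 15.6 ± 2.54 CPM in cold and 16.5 ± 5.69 CPM in control (log2 -0.07 ± 0.30 SE, edgeR adjusted p = 0.871).

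The genes of nonsense-mediated decay were mostly below what these libraries could test. Of 27, 19 had reads and 4 were tested. None of the 4 was called, beside 33.2% of all genes, and the median log2 difference was -0.03. At an unadjusted p under 0.05 there was 1, and DESeq2 also called 1. Pnrc2, an adaptor between the decay and decapping machinery and the most abundant of the 4, had 24.5, 26.5 and 26.4 CPM in the cold mice, against 27.0, 52.4 and 49.8 CPM in the control mice (log2 -0.72 ± 0.28 SE, edgeR adjusted p = 0.0654). The groups did not overlap, as in 47.8% of all genes tested, and control mouse 2 lay close to the cold mice. Eif4a3, Magoh and Rbm8a, core proteins of the exon junction complex, were the others tested. The central helicase Upf1 and the kinase Smg1 had no read in any library, so their levels in cold and control mice were below detection here.

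**Figure D4:**
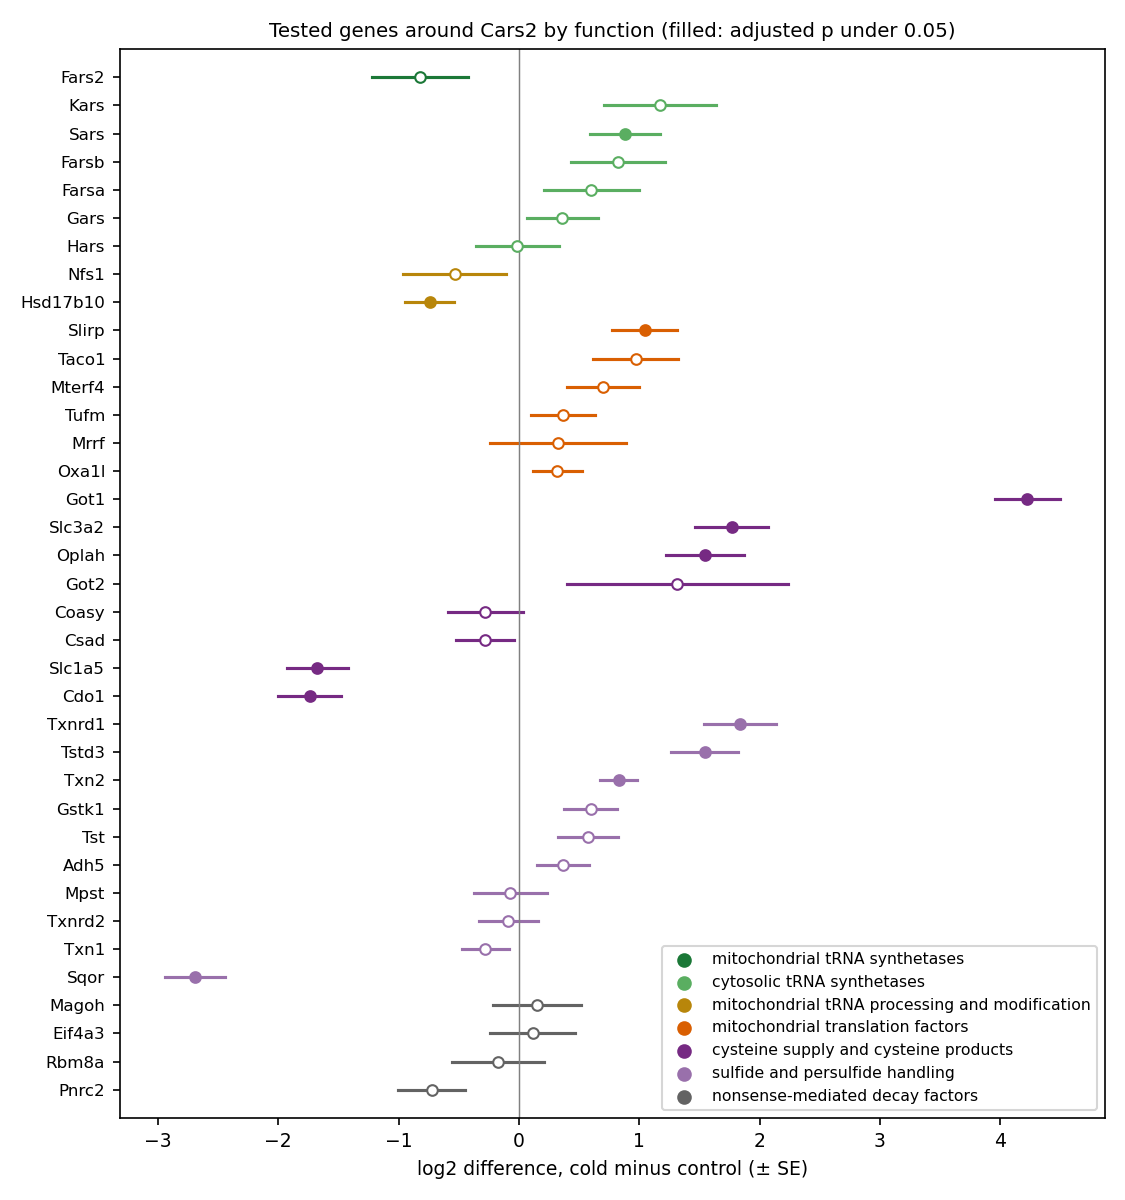
Log2 difference, cold minus control (x axis), of each tested gene in 7 lists around Cars2 (rows, coloured by list), with bars for the SE, filled points for genes past an edgeR adjusted p of 0.05 and open points for the others. Got1 of the cysteine list stands farthest to the right at 4.23, and Sqor of the sulfide list farthest to the left at -2.69.

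The genes with a profile most like that of Cars2 over the 6 libraries were found among tested genes of at least 32 CPM on average. Likeness was the Euclidean distance between log2 CPM profiles, each centred on its own mean, and Pearson's r over the same 6 libraries is given beside it without a p. Gmpr, which converts GMP to IMP, was nearest at a distance of 0.656 (r = 0.993), with 3639, 4924 and 3836 CPM in the cold mice, against 171, 154 and 180.0 CPM in the control mice. Like Cars2, it was highest in cold mouse 11. Adcy3, an adenylyl cyclase, followed at 1.10 (r = 0.982), with 129, 164 and 113 CPM in the cold mice, against 2.16, 5.14 and 7.80 CPM in the control mice. Cntfr, the receptor for ciliary neurotrophic factor, stood at 1.14 (r = 0.987), with 119 ± 32.3 CPM in cold and 6.84 ± 1.36 CPM in control. Got1 was at 1.15 (r = 0.983). Nnmt, a nicotinamide methyltransferase, was at 1.40 (r = 0.971), with 106 ± 7.39 CPM in cold and 3.90 ± 2.51 CPM in control. These correlations rest mainly on the gap between the groups, which the rule that picked Cars2 already used, and the points share library and depth.

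**Figure D5:**
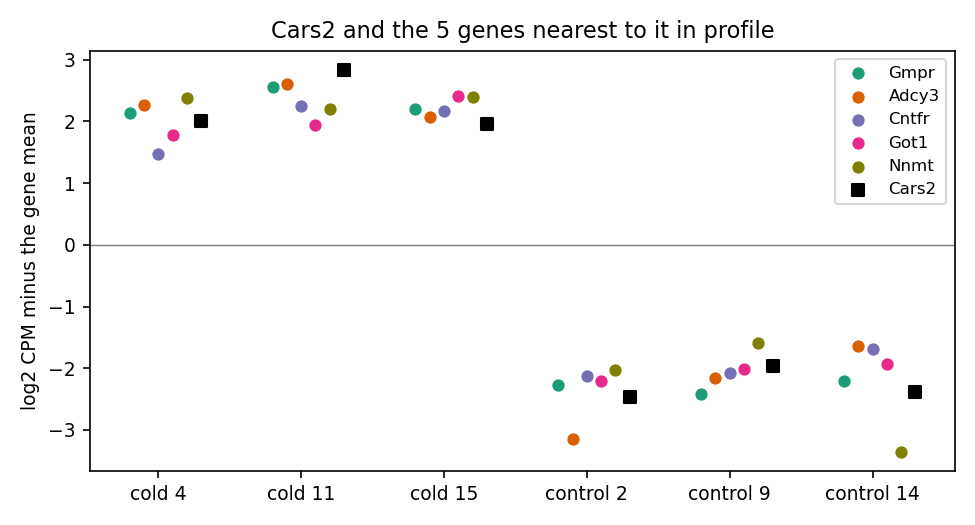
Log2 CPM minus the mean of each gene over the 6 libraries (y axis) for Cars2 (black squares) and the 5 genes nearest to it (coloured points), by library (x axis). All 6 genes lie above 0 in the cold libraries and below 0 in the control libraries, and Cars2, Gmpr, Adcy3 and Cntfr are highest in cold mouse 11.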

How the data were processed

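Messenger RNA of interscapular brown fat from 3 cold-exposed and 3 control mice was selected by poly(A) in 2 rounds and turned into capped, full-length cDNA with the TeloPrime kit over 27 PCR cycles, per the labels' protocols. The labels describe the cold treatment on the records of all 6 samples, so each sample was grouped by its title, whose mouse numbers name 6 separate mice. The authors deposited raw counts of reads per Ensembl transcript, not normalized, for each flow cell. Per the submitters' processing notes, minimap2 and GRCm38 were used; no version of minimap2 and no rule for reads that fit several transcripts is given in the sources used here. Transcripts not listed in a file were taken as 0.

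The 12 files were summed to 6 libraries of 1014847 to 2982713 reads. Of 14693 transcript identifiers, 14671 matched GENCODE M21 without their version, and the 22 others held at most 0.00433% of the reads of a library and were left out. No pair of libraries agreed within sampling noise: exact tests found 11.7 to 25.9% of transcripts to differ between libraries of 1 group, and 32.8 to 43.4% between groups. Cold was compared with control for genes and for transcripts by edgeR 4.0.16 (R 4.3.3), with these settings (filterByExpr at a minimum count of 10, TMM, robust quasi-likelihood F test, Benjamini-Hochberg adjusted p under 0.05), and the scripts were tested on simulated data. The SE is the log2 difference divided by the square root of F. CPM of Cars2 transcripts uses the effective library sizes of the gene fit. Shares have Wilson 95% intervals, and near copies were sought with blastn 2.17.0. DESeq2 1.42.0, other scalings, no count filter, single flow cells, equal depth and leaving out each library were tried as alternatives.

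Cars2 and the gene lists were chosen with earlier results of these data known. Named were, in each pathway list, up to 3 called genes with the smallest p in each direction and the most abundant tested gene, as well as Cars, the nearest tested gene on each side and the 5 nearest profiles, and the most abundant tested gene of marker lists. Naxd, Ing1, Ucp1, Mpst, the other tested or unread members and the markers at 0 were named after their values were seen.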

Additional observations from a re-analysis of the deposited data

How the results depend on the processing

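The log2 difference of Cars2 kept its direction under all 14 alternatives and ran from 4.35 to 4.97, the highest on flow cell 2 alone. The difference in decay-annotated share, 7.90 percentage points, ran from -0.27 to 12.4 when 1 library was left out, and was 4.07 on flow cell 1 alone and 13.3 on flow cell 2 alone. It reversed, to -0.27, without control mouse 14, and the control shares rest on 16 to 21 reads each. Of the cytosolic tRNA synthetases, 1 was called by edgeR. With DESeq2, flow cell 1 alone, flow cell 2 alone, no count filter and each library left out in turn 0 were called, with 0, 0, 1, 3 and 1 to 2 members at an unadjusted p under 0.05, and at equal depth 2 were called. No alternative called a gene of the mitochondrial tRNA synthetase list. Among the 27 other called genes followed through the alternatives, none reversed. Their calls were lost in 10 of 14 alternatives for Sars, 10 for Hspd1, 5 for mt-Nd3, 3 for mt-Nd6, 3 for Slirp, 2 for Hsd17b10 and 1 for Oplah. Genes called numbered 695, against 498 to 708 under the alternatives, and without the count filter the median of all genes shifted by 0.12 (log2). No paired analysis was possible because cold and control mice share no replicate number.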

Other observations

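Of 26 genes of the amino acid and mitochondrial stress responses, several of which are known to respond when charged transfer RNA runs short, 18 had reads and 11 were tested. In cold 2 were higher and 2 lower, a share near the 33.2% of all genes called, with a median log2 difference of 0.24. Atf4, the transcription factor of the amino acid response, had 425, 349.9 and 424 CPM in the cold mice, against 229.9, 221 and 202 CPM in the control mice (log2 0.88 ± 0.18 SE, edgeR adjusted p = 0.00437). Hspd1, a mitochondrial chaperonin, had a log2 difference of 0.54 ± 0.19 SE, just past the threshold (edgeR adjusted p = 0.04998), and its call was lost when any 1 library was left out. Psph, the last enzyme of serine synthesis, had 4.36, 5.30 and 2.31 CPM in the cold mice, against 17.8, 23.6 and 22.2 CPM in the control mice (log2 -2.38 ± 0.33 SE, edgeR adjusted p = 0.000431). Eif4ebp1, an inhibitor of cap-dependent translation, had 7.62 ± 3.52 CPM in cold and 51.0 ± 18.3 CPM in control (log2 -2.73 ± 0.38 SE, edgeR adjusted p = 0.000443). Atf5, the most abundant of the list and a regulator of the mitochondrial stress response, had 2487 ± 442 CPM in cold and 1877 ± 638 CPM in control (log2 0.41 ± 0.24 SE, edgeR adjusted p = 0.226).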
